A study of Mus musculus with 12 samples.

Results

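MSM-specific acetylated regions were stretches of the genome where liver chromatin carried a peak of histone H3 acetylated at lysine 9 (H3K9ac) in both libraries of the MSM mouse strain and in neither library of the B6 strain. Overlapping or abutting peaks of the 4 parental lists were merged into 25803 regions, of which 872 (3.38%) were selected on this pattern. The pattern is the selection rule itself, so the count is a description and was not tested. Of the 12024 regions with a peak in both MSM lists, 7777 also had one in both B6 lists, 3364 in the first B6 list only, 11 in the second B6 list only and 872 in neither. The absence from B6 therefore rested mainly on the longer first list, without which 4654 regions were MSM-specific.

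H3K9ac was mapped by chromatin immunoprecipitation and sequencing in adult liver. B6 (C57BL6/J, the source of the mouse reference sequence) and MSM (MSM/Ms, an inbred strain of another subspecies) had 2 libraries each. These are named here B6 1, B6 2, MSM 1 and MSM 2. The reciprocal F1 hybrids of these strains had 1 library each. The titles BM and MB are read here with the mother named first. On this reading, F1 BM had a B6 mother and an MSM father, and F1 MB an MSM mother and a B6 father. No animal carried a transgene or received a treatment according to the labels, and the study describes the libraries of each strain as coming from separate individuals. Only peak lists were analysed here, with 22968 peaks in B6 1, 11619 in B6 2, 17310 in MSM 1, 17584 in MSM 2, 20173 in F1 BM and 13235 in F1 MB. These lists covered from 6.28 Mb (B6 2) to 16.02 Mb (B6 1), the lists give no read depth, and a region outside a list may carry acetylation below the caller's threshold. Peaks lay at the start of 5 of 6 hepatocyte marker genes in every library and of 0 of 6 Kupffer cell marker genes in any library.

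Acetylation of H3K9 is laid down by acetyltransferases at active promoters and enhancers and is removed by histone deacetylases. Proteins that bind it help to open chromatin and to recruit the transcription machinery. In liver, it marks the genes for plasma proteins, bile acid and steroid metabolism and the clearance of foreign compounds, many of which stand in tandem families that differ between mouse strains.

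Reference sequence around the peak summit is shown for 6 members, to let promoter and distal members be compared: the 2 members at a gene start and the 3 distal members with the highest fold enrichment, and the member with the highest fold in the F1 libraries. Fold enrichment is the peak caller's ratio of signal at the summit over its background, and members were ranked by the lower of their MSM 1 and MSM 2 values. Each window holds 300 bases of the plus strand of GRCm38 (RefSeq), is the B6 and not the MSM allele, and has every CpG in capitals. Ces2h encodes a carboxylesterase and Pax8 a transcription factor best known from thyroid and kidney; the other names give the nearest protein-coding gene.
Ces2h chr8:105000829-105001128: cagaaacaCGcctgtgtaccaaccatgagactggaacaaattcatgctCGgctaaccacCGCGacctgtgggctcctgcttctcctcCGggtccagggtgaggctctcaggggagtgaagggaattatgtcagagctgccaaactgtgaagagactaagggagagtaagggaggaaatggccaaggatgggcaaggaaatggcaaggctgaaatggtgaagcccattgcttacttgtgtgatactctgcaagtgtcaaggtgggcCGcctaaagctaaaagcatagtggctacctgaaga
Pax8 chr2:24474325-24474624: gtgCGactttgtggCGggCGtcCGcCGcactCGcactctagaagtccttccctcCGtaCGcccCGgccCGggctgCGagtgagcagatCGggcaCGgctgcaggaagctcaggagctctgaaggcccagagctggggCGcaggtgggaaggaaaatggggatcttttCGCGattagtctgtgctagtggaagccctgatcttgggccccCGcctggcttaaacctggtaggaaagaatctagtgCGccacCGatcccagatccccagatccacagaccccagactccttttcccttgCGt
E2f7 chr10:110726377-110726676: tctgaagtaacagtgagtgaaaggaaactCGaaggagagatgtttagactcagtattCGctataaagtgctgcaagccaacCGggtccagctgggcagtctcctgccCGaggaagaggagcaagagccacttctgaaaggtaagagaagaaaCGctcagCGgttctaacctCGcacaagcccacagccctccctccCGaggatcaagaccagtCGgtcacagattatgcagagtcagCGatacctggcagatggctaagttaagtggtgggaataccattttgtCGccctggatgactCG
Oaf chr9:43265319-43265618: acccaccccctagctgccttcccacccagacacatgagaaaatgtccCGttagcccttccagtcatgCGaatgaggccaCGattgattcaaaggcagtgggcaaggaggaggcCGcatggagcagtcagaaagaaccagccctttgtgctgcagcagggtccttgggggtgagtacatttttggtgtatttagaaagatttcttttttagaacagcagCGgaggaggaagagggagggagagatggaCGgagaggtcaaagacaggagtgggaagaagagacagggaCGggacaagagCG
Sptssa chr12:54549919-54550218: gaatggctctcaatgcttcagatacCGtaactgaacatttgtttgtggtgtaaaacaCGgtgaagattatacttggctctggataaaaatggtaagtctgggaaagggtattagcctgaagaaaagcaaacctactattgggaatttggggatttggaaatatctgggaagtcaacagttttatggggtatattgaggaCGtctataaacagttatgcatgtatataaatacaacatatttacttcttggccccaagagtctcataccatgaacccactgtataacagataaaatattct
Cabcoco1 chr10:68439181-68439480: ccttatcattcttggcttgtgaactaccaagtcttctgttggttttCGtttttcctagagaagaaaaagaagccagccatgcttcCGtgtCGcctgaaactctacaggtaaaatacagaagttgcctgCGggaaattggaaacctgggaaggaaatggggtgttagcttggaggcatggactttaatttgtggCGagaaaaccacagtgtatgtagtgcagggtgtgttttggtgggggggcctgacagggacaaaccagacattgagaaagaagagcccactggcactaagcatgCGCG

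The Pax8 window held 20 CpGs and the E2f7 window 12, whereas the windows of Oaf, Cabcoco1, Ces2h and Sptssa held 8, 7, 6 and 3. High folds in MSM were therefore found at both CpG-rich and CpG-poor members. GC content ran from 37.0% at Sptssa to 61.7% at Pax8. None of the 6 windows held a 50-base word that occurs elsewhere in the reference genome.

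MSM-specific regions lay mostly away from promoters. Of the 872, 111 (12.7%, 95% Wilson interval 10.7 to 15.1) came within 1 kb of the start of a protein-coding gene (GENCODE M21), whereas 49.5% of all merged regions did. Without B6 1 in the rule, the share was 47.4%, of 4654 regions. Of the others, 147 (16.9%) overlapped an exon, 372 (42.7%) an intron and 242 (27.8%) no gene. Among the 849 B6-specific regions, which had a peak in both B6 lists and neither MSM list, 40.0% (36.8 to 43.4) were at a start, and among the 7777 regions of all 4 lists 70.8% (69.8 to 71.8). Of the 2387 regions with a peak in a single MSM list and in no B6 list, 439 (18.4%) were at a start. A low share at starts was therefore not particular to regions found in both MSM lists. Intervals here and below cover counting error only, and no test was made, because the regions were chosen from the same lists.

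**Figure D1:**
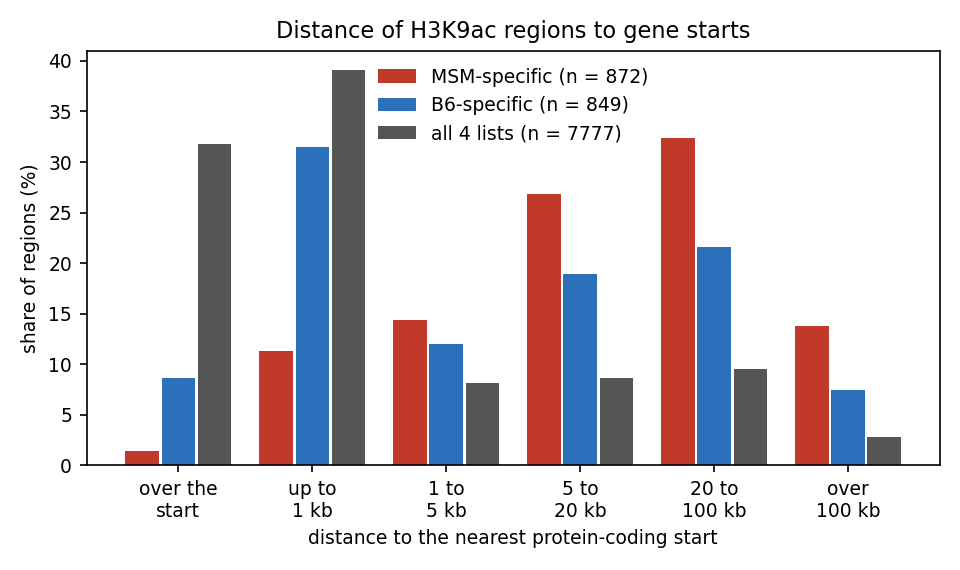
Distance from H3K9ac regions to the nearest protein-coding gene start (x axis, in classes) against the share of regions in each class (y axis, percent), for MSM-specific, B6-specific and all-list regions. Of the MSM-specific regions, 1.38% lay over a start and 32.3% lay 20 to 100 kb away, against 31.8% and 9.57% of the regions of all 4 lists.

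The median distance of the members to a protein-coding start was 17273.5 bp, compared with 4136 bp for B6-specific regions and 81 bp for regions of all 4 lists. More than 10 kb away were 535 members (61.4%), and more than 100 kb away 120 (13.8%). Regions in a single MSM list also lay far from starts, with a median of 12523 bp, 54.3% over 10 kb and 10.9% over 100 kb away. Of the 224 members within 5 kb of a start but not over it, 151 lay downstream and 73 upstream. In this class of B6-specific regions, 208 of 369 lay downstream. The median width of the members was 446.5 bp (223 to 2000 bp), against 577 bp for B6-specific regions, 1010 bp for regions of all 4 lists, 263 bp for those in a single MSM list and 517 bp for all merged regions.

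The location of MSM-specific regions depended on how long the peak lists were allowed to be. With the 11619 highest-ranked peaks of every library (ranked by −log10 q, the caller's adjusted significance), 888 regions were MSM-specific and 30.5% of them were at a start. With the 6.28 Mb of highest-ranked peaks in every library, 765 were MSM-specific and 49.2% were at a start. The values for B6-specific regions were 53.1% under both rules. Only 331 and 143 of the 872 members were found again as MSM-specific under the respective rules, so the share of 12.7% holds for the deposited lists. All merged regions had 59.2% and 61.8% at starts under these rules, above the MSM-specific regions in both.

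**Figure D2:**
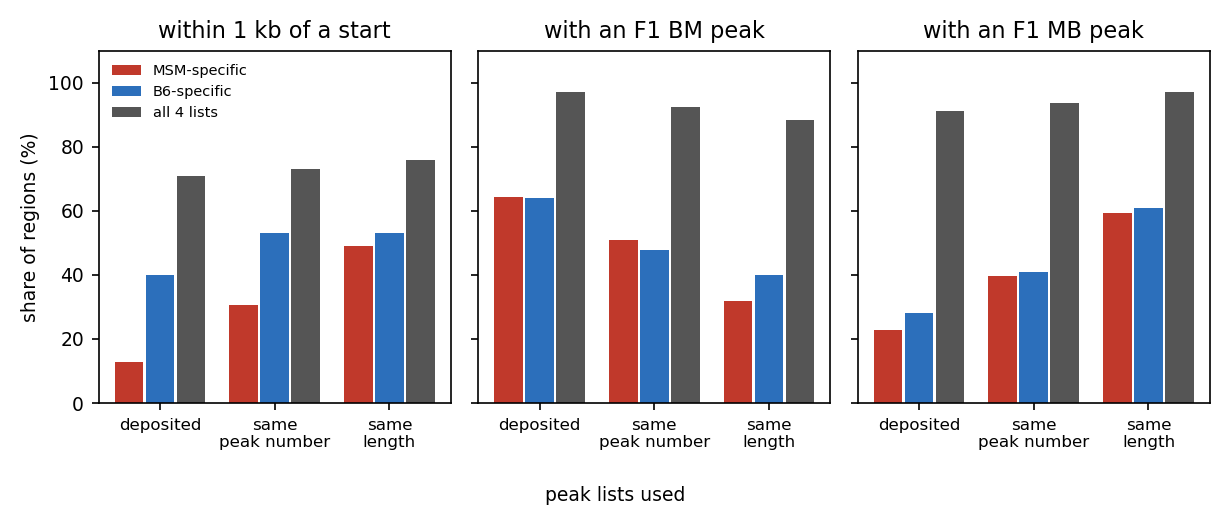
Share of regions (y axis, percent) within 1 kb of a protein-coding start, with an F1 BM peak and with an F1 MB peak, for the deposited lists, the same number of peaks and the same covered length in every library (x axis). For MSM-specific regions the share at a start was 12.7%, 30.5% and 49.2% in this order, and the share with an F1 BM peak 64.2%, 51.0% and 31.9%.

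All chromosomes held members. Chromosome 5 had the most, with 82 (4.79% of its merged regions), and chromosome 11 the lowest share among the autosomes, with 35 (1.81%). Chromosome X held 10 members of 513 merged regions. Chromosome Y held 4 of 8. Neither B6 library had a peak on chromosome Y, MSM 1 had 8, MSM 2 had 4, F1 BM had 9 and F1 MB had 1. The windows of the 4 members on Y consisted of repeated 50-base words to between 66.1% and 100%. The start of Xist, the gene that silences an X chromosome in females, had a peak in all 6 lists, and the starts of the Y-linked genes Ddx3y, Eif2s3y, Uty and Kdm5d in none. The sex of the animals was not given in the sources used here, and its part in any result was not tested.

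The fold enrichment of the members was moderate. The median was 4.37 (1.95 to 19.5) in MSM 1 and 4.47 (2.11 to 13.8) in MSM 2, where regions of all 4 lists had 6.20 and 6.32. Over the 872 members, the values of the libraries were weakly related (Spearman's rho = 0.37, a description, since all members share the same libraries and the choice of regions truncates their range), and 706 members differed by less than 1.5-fold between the libraries. The members with the least support were at Mcm10, Primpol and 4930430F08Rik, each with a −log10 q of 1.35 in MSM 2. Just outside the rule, regions near Hsd17b13, Tulp1 and AC153137.1 had peaks in both MSM lists and a B6 1 peak of −log10 q 1.32, 1.43 and 1.47. The folds at Hsd17b13 were 3.70 in MSM 1, 3.32 in MSM 2 and 2.11 in B6 1, so the line between members and other regions ran through weak peaks.

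**Figure D3:**
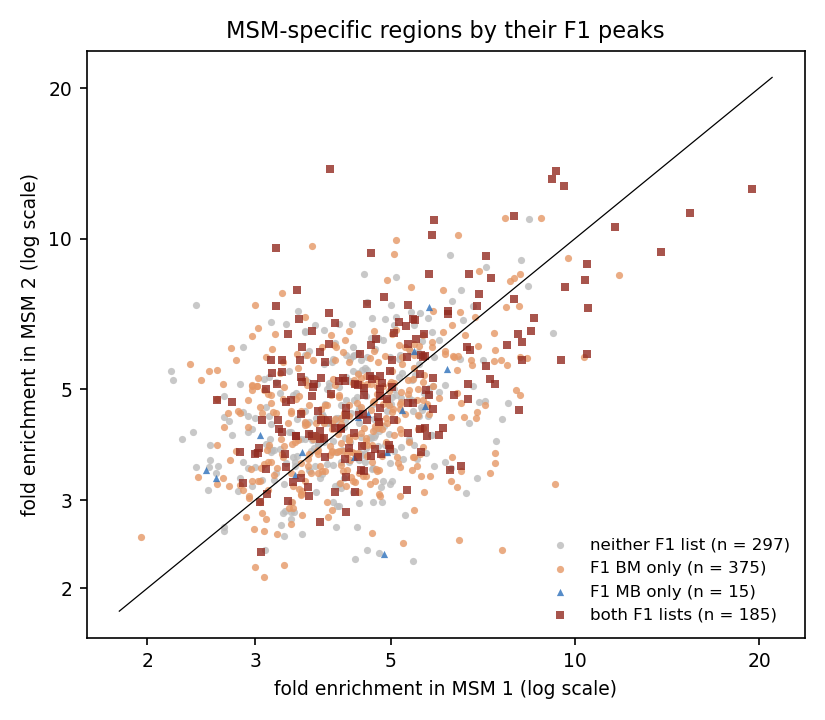
Fold enrichment of the 872 MSM-specific regions in MSM 1 (x axis, log scale) against MSM 2 (y axis, log scale), each point 1 region, coloured by whether a peak overlapped it in F1 BM, F1 MB, both or neither. Values ran from 1.95 to 19.5 in MSM 1, and the 185 regions with a peak in both F1 lists extend to the highest folds.

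Many members stood beside B6 acetylation. A B6 peak lay within 500 bp of 239 members (27.4%), and between 500 bp and 5 kb of another 192 (22.0%). The other 441 (50.6%, 47.3 to 53.9) were more than 5 kb from any B6 peak, counting the 4 on chromosome Y, which had none in B6. Measured to B6 2 alone, the shorter list, the share was 72.0%. The 239 members beside a B6 peak were counted as MSM-specific because that peak did not reach them.

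The members within 1 kb of a start touched 113 protein-coding genes (0.516% of 21911). Of these genes, 27 had a B6 peak within 1 kb of the start in both B6 lists, 26 in exactly 1 and 60 in neither. Within 1 kb of the start, F1 BM had a peak at 29 of the 60 and F1 MB at 12, all of which F1 BM had too. The other 31 starts had none in either hybrid. The share of all gene starts with an F1 peak is not given here. By region instead of start, F1 BM peaks overlapped 62.7% of all merged regions and F1 MB peaks 43.6%. For B6-specific regions at starts these shares were 58.5% and 30.3%.

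Of the members at a start, Ces2h had the highest lower fold. This member (chr8:105000490-105001380) covered the start and overlapped an exon, 41866 bp from the nearest B6 peak. Its fold was 13.8 in MSM 1, 9.38 in MSM 2, 6.19 in F1 BM and 4.55 in F1 MB, so the hybrids lay below both MSM libraries. Members named for their fold were chosen on MSM values, which favours lower values in other libraries. The median fold over all peaks was 3.38 in F1 BM and 4.57 in F1 MB. It was 4.93 in MSM 1 and 4.996 in MSM 2.

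The member 534 bp inside Pax8 (chr2:24473834-24475065) had a fold of 8.42 in MSM 1 and 10.9 in MSM 2 and no peak in F1 BM or F1 MB. The nearest B6 peak was 414631 bp away. Slc10a2 encodes the ileal bile acid transporter, and its start region (chr8:5104755-5105311) had 8.58, 6.93, 4.98 and 3.97 in MSM 1, MSM 2, F1 BM and F1 MB. C6, a component of the membrane attack complex of complement, had 8.47, 6.53, 6.91 and 6.02 in this order (chr15:4727218-4728357). At C6 the F1 BM value thus lay between those of the MSM libraries, whereas both F1 values at Slc10a2 lay below them.

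Aldh1a7, an aldehyde dehydrogenase, had a member of 1690 bp starting 52 bp inside the gene (chr19:20725821-20727510), with a fold of 6.96 in MSM 1, 8.61 in MSM 2 and 2.72 in F1 BM, and no F1 MB peak. Lims2, an adaptor protein of focal adhesions, had 7.67, 11.001 and 3.99 in these libraries and also lacked an F1 MB peak. Gm379 on chromosome X had 6.71, 8.48, 4.37 and 2.90 in MSM 1, MSM 2, F1 BM and F1 MB. At Cog7, a subunit of a Golgi tethering complex, the folds were 6.56 in MSM 1 and 6.86 in MSM 2, with no F1 peak.

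Of the 10 start members with the highest lower fold, those at Dtnb and Zcchc9 lay close to acetylation in B6. The Dtnb member was 172 bp and the Zcchc9 member 196 bp from a B6 peak. Dtnb (dystrobrevin beta) had 10.4 in MSM 1, 8.25 in MSM 2, 5.22 in F1 BM and 7.59 in F1 MB. At Zcchc9, the member had 6.83 and 7.34 in MSM 1 and MSM 2 and no F1 peak over it, while both hybrids had another peak within 1 kb of the start. Neither was MSM-specific when a B6 peak within 500 bp counted as present.

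The highest fold of all members was in a distal region of 1807 bp (chr10:110725770-110727576), 17863 bp upstream of E2f7, which encodes a repressor of the cell cycle. It had 19.5 in MSM 1, 12.6 in MSM 2, 9.54 in F1 BM and 7.81 in F1 MB. From it, the nearest B6 peak was 8173 bp away. Its nearest gene is named for position only, and nothing here ties a distal region to a target.

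The region nearest to Oaf (chr9:43264564-43265959) overlapped an exon of D630033O11Rik and had 15.4, 11.2, 6.70 and 3.91 in MSM 1, MSM 2, F1 BM and F1 MB. It stood 150 bp from a B6 peak. A region 105824 bp from the start of Sptssa, a small subunit of serine palmitoyltransferase (chr12:54549886-54550749), had 11.6, 10.5, 4.85 and 3.97 and was 105109 bp from any B6 peak. The contrast shows how different the surroundings of strong distal members were.

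Near Il12rb1, an interleukin receptor subunit, the folds were 9.59, 12.7, 8.04 and 6.39 in MSM 1, MSM 2, F1 BM and F1 MB. Near Cilp, in an exon of Parp16, they were 9.30, 13.7, 3.21 and 3.85, and at C130074G19Rik 9.16, 13.2, 5.13 and 5.20. Near Ythdf3, a reader of methylated RNA, they were 10.4, 8.88, 5.92 and 5.62. In each of these 4 members, chosen for high MSM folds, both F1 values were below both MSM values.

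The members in introns of Phf20 and of H6pd, which makes NADPH in the endoplasmic reticulum, had an F1 BM peak (3.32 and 5.24) and no F1 MB peak. The H6pd member lay 286 bp from a B6 peak. The region nearest to Gm17093 had 9.76 in MSM 1 and 9.15 in MSM 2, but 96.0% of the 50-base words in its window occurred elsewhere in the reference, as many bases as 1 end of a read pair.

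The 5 widest members were 2000 bp in an intron of Aldh1a1, 1982 bp at 13307 bp from Hsd3b5, 1959 bp upstream of Arid5b (a DNA-binding regulator of transcription), 1951 bp at the start of Sqle and 1922 bp upstream of Sult3a1. Sqle, squalene epoxidase of cholesterol synthesis, had 7.60 in MSM 1 and 4.35 in MSM 2 over this region and no F1 peak. The Hsd3b5 region, near a steroid-metabolising enzyme, had 7.74 and 6.11 in MSM and 2.66 and 4.33 in F1 BM and F1 MB.

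Each hybrid received 1 genome from each strain, so the F1 lists ask whether acetylation was called at these regions with chromosomes of both strains present. The lists are not split by allele, so an F1 peak cannot be assigned to the MSM or the B6 chromosome. F1 peaks overlapped 560 members (64.2%, 61.0 to 67.3) in F1 BM and 200 (22.9%, 20.3 to 25.8) in F1 MB, where the shares over all merged regions were 62.7% and 43.6%. The F1 MB share moved with the libraries of the rule, to 50.0% without B6 1, to 12.4% without MSM 1 and to 13.002% without MSM 2. A peak in both hybrids was found at 185 members (21.2%), against 39.8% of all merged regions. The remaining members fell into 375 found only in F1 BM, 15 found only in F1 MB and 297 (34.1%) in neither hybrid.

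B6-specific regions had F1 peaks at 64.1% (60.8 to 67.2) in F1 BM and 28.2% (25.2 to 31.3) in F1 MB, close to the shares of the members in F1 BM. Regions of all 4 lists had them at 97.1% and 91.2%. F1 BM also had the longer list. When every list was limited to its 11619 highest-ranked peaks, the 888 regions then MSM-specific had 51.0% for F1 BM and 39.5% for F1 MB. That was the same order with a smaller gap. With the same covered length, the 765 regions then MSM-specific had 31.9% and 59.2%, the opposite order. Only 331 and 143 of the 872 members stayed MSM-specific under the respective rules, so these are not shares of the members. All merged regions gave 61.5% and 60.4% under the former rule and 45.9% and 63.3% under the latter, so the order turned there too, and B6-specific regions gave 47.8% and 41.0%, then 40.1% and 61.0%. With 1 library per cross, direction of the cross and library cannot be told apart.

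At gene starts a smaller share of members had an F1 BM peak: 53 of 111 (47.7%, 38.7 to 57.0), against 507 of 761 distal members (66.6%, 63.2 to 69.9). F1 MB had a peak at 21 (18.9%, 12.7 to 27.2) of the members at starts and 179 (23.5%, 20.6 to 26.7) of the distal ones. Distal B6-specific regions had 67.8% in F1 BM and those at starts 58.5%, and in regions of all 4 lists the shares were 98.4% and 96.6%. For F1 MB, these classes had the higher share at starts, with 30.3% against 26.7% of distal B6-specific regions and 92.4% against 88.1% in all 4 lists.

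The members with the highest folds in MSM had F1 peaks most often, but the share did not climb evenly. In 4 groups of 218 members ordered by their lower fold, F1 BM had 60.6%, 65.1%, 59.2% and 72.0%, and F1 MB 15.1%, 22.5%, 21.6% and 32.6%. Of the 483 members with a lower fold from 2 to 4 (1 member was below 2), F1 BM had 61.9% and F1 MB 18.6%. Of the 38 members from 6 to 8, F1 BM had 81.6% (66.6 to 90.8) and F1 MB 42.1% (27.9 to 57.8). Of the 17 members with a fold of at least 8, F1 BM had 14 and F1 MB 10. At the same parental fold, regions of all 4 lists had higher shares in both hybrids, with 93.4% (F1 BM) and 76.9% (F1 MB) in the lowest class.

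**Figure D4:**
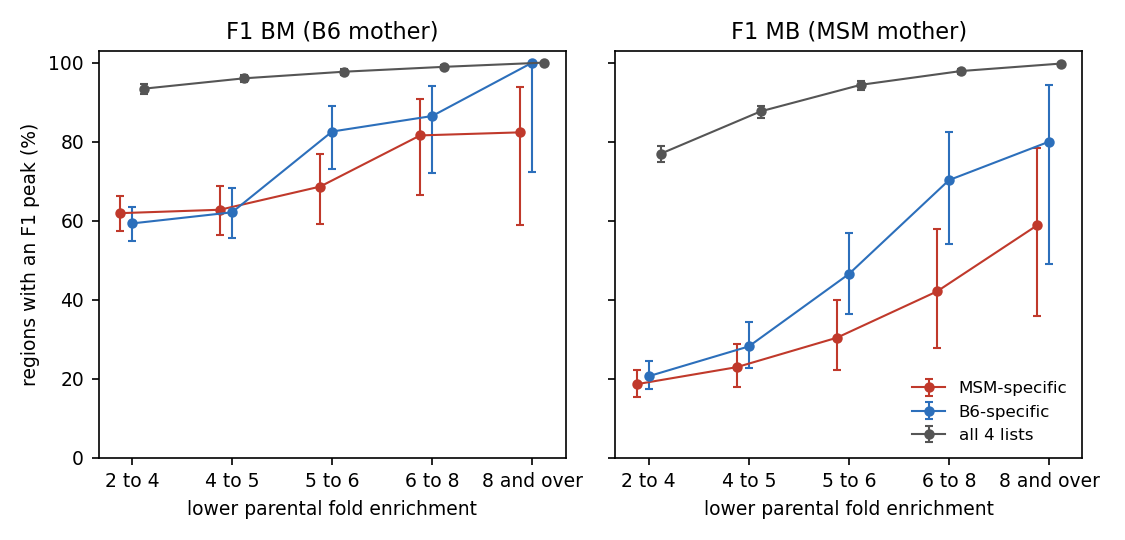
Share of regions with a peak in F1 BM (left) or F1 MB (right) on the y axis, percent, by the lower fold enrichment of the 2 libraries of the parent strain (x axis, classes; MSM fold for MSM-specific and all-list regions, B6 fold for B6-specific ones). Bars are 95% Wilson intervals, and in F1 MB the MSM-specific share was 18.6% at a fold of 2 to 4 and 58.8% from 8 upwards.

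Where a member had an F1 peak, its fold there was usually lower than in MSM. The median ratio of the F1 fold to the mean MSM fold was 0.715 in F1 BM (499 of 560 below 1) and 0.802 in F1 MB (155 of 200). Regions of all 4 lists, which both parents had, gave 0.687 and 0.833. These ratios exist only where an F1 peak was called, which leaves out more of the members than of the regions of all 4 lists (7555 and 7090 of 7777 had one), so they do not compare the lowering in these groups as a whole.

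Members also stood close to one another. Counting runs of at least 3 members with no gap over 100 kb, 49 runs held 181 members (20.8%), over spans of 2116 to 146731 bp (median 47840 bp). B6-specific regions formed 26 runs with 86 regions (10.1%). Only overlapping or abutting peaks were merged, so 1 acetylated stretch broken by short gaps can count as several members. Short runs included Aacs (3 members in 2116 bp), C130074G19Rik (4 in 2643 bp) and G6pc (4 in 3729 bp). Runs under wider merging or other list lengths are not given here. In 19 of the 49 runs, no region between the first and last member had a B6 peak, and these held 66 members, of which 48 had an F1 BM peak and 14 an F1 MB peak. Every member had an F1 BM peak in 19 runs and an F1 MB peak in 3. In all runs together, F1 BM had a peak at 71.8% of members and F1 MB at 29.8%, against 62.2% and 21.1% of the members outside runs.

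The run with the most members, 7 over 45884 bp, lay at the zinc finger genes Zfp872 and Zfp809 (chr9:22188277-22234160), the latter a repressor of retroviral elements. Its member 11825 bp upstream of Zfp809 had a fold of 9.64 in MSM 1, 8.01 in MSM 2, 3.94 in F1 BM and 5.96 in F1 MB. Its member at the start of Zfp872 had 6.91 and 3.32 in MSM and no F1 peak. Of the 12 merged regions inside this run, 3 had a B6 peak.

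All 5 members at Pax8 stood in a stretch of 24978 bp (chr2:24455168-24480145) with 8 merged regions and no B6 peak. Only 1 of the 5 had an F1 BM peak (2.93), and none had an F1 MB peak. At St3gal5, which makes the ganglioside GM3, and Polr1a, 1 of 6 members had an F1 BM peak and none an F1 MB peak. By contrast, at Pcx (pyruvate carboxylase) and Lrfn4 all 6 had an F1 BM peak and 2 an F1 MB peak, and at Cabcoco1 all 4 had both. At Aacs, none of 3 members had a peak in either hybrid, so the runs ranged from none to all of their members.

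Runs at families of liver enzymes and related genes included Ces2h and Ces3b (5 members), Cyp3a41a and Cyp3a44 (5), Cyp3a41b (3), Sult3a1 and Sult3a2 (3), Cyp2d11 and Cyp2d9 (3), Ugt1a9 and Ugt1a10 with Usp40 (4), Serpina12 and Serpina5 (4) and Adh7 and Adh1 (3). The stretch at Cyp3a41a and Cyp3a44 (chr5:145740349-145800992) held 7 merged regions, none with a B6 peak. The median share of repeated 50-base words over its members was 9.56%, while it was 59.4% at Cyp2d11 and Cyp2d9 and 0% at Serpina12 and Serpina5.

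**Figure D5:**
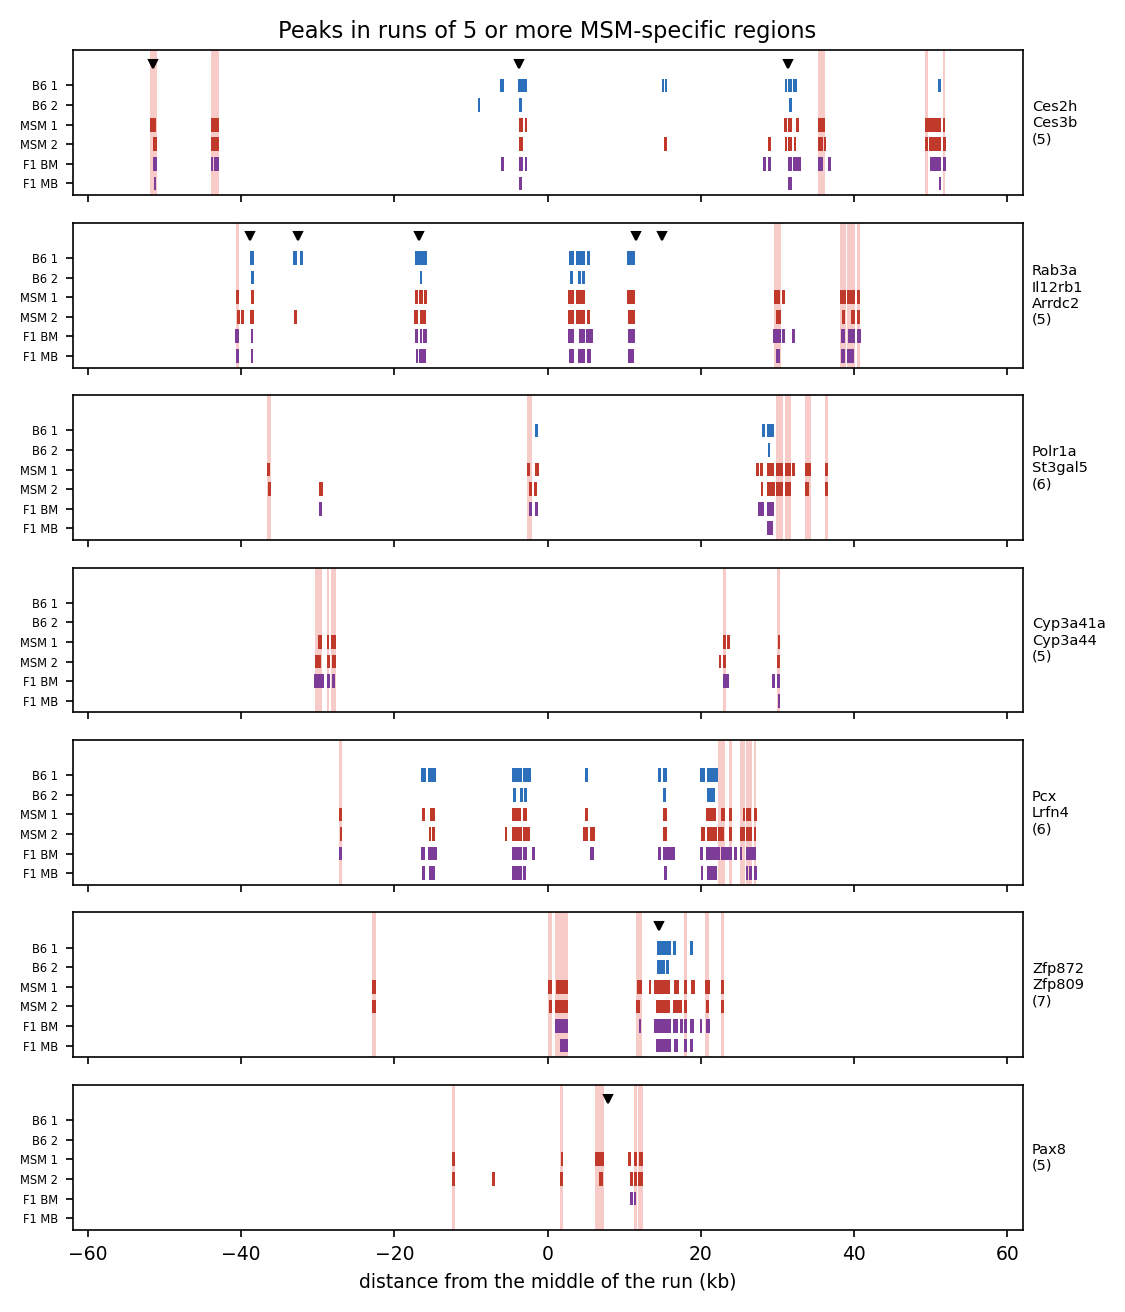
Peaks of the 6 libraries (rows of each panel) in 7 runs of 5 or more MSM-specific regions, against the distance from the middle of the run (x axis, kb). Pale red bands are the MSM-specific regions, black triangles protein-coding starts, and numbers in brackets the members; the panels of Cyp3a41a with Cyp3a44 and of Pax8 hold no B6 peak.

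Of all 21911 protein-coding genes, 2.71% were the nearest gene, within 100 kb, of a member. In families of drug and steroid metabolism, these were 10 of 85 cytochromes P450 (a list of the drug- and fatty acid-metabolising families with the bile acid and steroid enzymes Cyp7a1, Cyp7b1, Cyp8b1 and Cyp17a1), 3 of 19 carboxylesterases, 5 of 21 UDP-glucuronosyltransferases, 4 of 21 sulfotransferases and 4 of 20 aldehyde dehydrogenases. Of 25 glutathione S-transferases 1 (4.0%) was nearest to a member, and of 65 organic ion and related transporters 4 (6.15%). A member whose window held no 50-base word found elsewhere in the reference was near only 3 of the 10 cytochromes P450, 2 of the 3 carboxylesterases, 2 of the 5 UDP-glucuronosyltransferases and 3 of the 4 sulfotransferases, but near each of the 4 aldehyde dehydrogenases. At least 50% of the words recurred in 4 of the 18 members near cytochromes P450. No set test was run on these lists. Families in tandem can share members and stand close together, and B6-specific regions were nearest to 13 of the 85 cytochromes P450, against 3.24% of all genes.

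The members near cytochromes P450 had a median lower fold of 3.53, against 3.86 for all 872. The highest was a region 22297 bp upstream of Cyp3a41a, with 10.3 in MSM 1, 5.79 in MSM 2 and 5.09 in F1 BM. Members at starts were found at Cyp2c70, Cyp2d40 and Cyp8b1, the latter the 12-alpha-hydroxylase of bile acid synthesis. Cyp8b1 had 2.84, 4.49 and 2.29 in MSM 1, MSM 2 and F1 BM, and a B6 peak 208 bp away. Sult3a2 had 4.98, 4.95 and 3.996 at its start, 71166 bp from a B6 peak, and Ugt1a10 had 3.99, 6.41 and 2.84, 14577 bp from one. No F1 MB peak overlapped these members of Cyp8b1, Sult3a2 and Ugt1a10, though F1 MB had another peak within 1 kb of the Cyp8b1 start.

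Genes known to differ between male and female mouse liver were among the nearest genes. These were 8 of 20 higher in males and 10 of 25 higher in females, against 2.71% of all genes. The lists were chosen with earlier results of these data known, and no set test was run. Only 4 of these 8 and 4 of these 10 had a member without repeated 50-base words. The male list gave C6, Cyp2d9, Hsd3b5, Mup3, Selenbp2, Serpina12, Susd4 and Ugt2b1, and the female list included Cyp2a4, Cyp3a16, Cyp3a41a, Cyp3a41b, Cyp3a44, Hao2, Sult3a1 and Trim24. B6-specific regions were nearest to 2 of the 20 and 7 of the 25, against 3.24% of all genes. With the same covered length in every library the counts for MSM-specific regions were 5 and 6. Both directions were present, and these lists share genes with the families above, some of them neighbours such as Cyp3a41a and Cyp3a44.

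Of the genes higher in males, Susd4 carried a run of 3 members with no B6 peak inside (chr1:182764167-182833408). Its start region had 6.34 in MSM 1, 5.81 in MSM 2 and 3.77 in F1 BM, and the last member, in an exon, 7.40, 5.98 and 3.64. Of those higher in females, Hao2, a peroxisomal hydroxyacid oxidase, had a member over its start with 3.83, 4.12, 3.97 and 3.37 in MSM 1, MSM 2, F1 BM and F1 MB. In this member F1 BM lay between the MSM libraries and F1 MB below both. Of the 18 members near genes higher in females, 16 had an F1 BM peak and 5 an F1 MB peak. Of the 14 near genes higher in males, 9 and 5 did.

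The major urinary proteins, which carry pheromones, were nearest in 7 of 22 cases, with 8 members, against 2.71% of all genes. B6-specific regions were nearest to 4 of the 22. In 7 of the 8 members, at least 50% of the window's 50-base words occurred elsewhere in the genome, and no window was free of them. Mup3 was the exception, with 6.37% repeated words and folds of 4.89, 5.82 and 3.36 in MSM 1, MSM 2 and F1 BM. No F1 MB peak overlapped any of the 8. Which copy of the family the reads came from cannot be told apart here.

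In sterol and fatty acid synthesis, 4 of 21 genes were nearest to a member: Sqle, Lss, Fdft1 and Elovl6. Lss, lanosterol synthase, had a member at its start with 4.89 and 6.89 in MSM, 439 bp from a B6 peak. No F1 peak overlapped this member, though F1 MB had one elsewhere within 1 kb of the start. Fdft1, squalene synthase, had 6.32, 5.82 and 2.57 in MSM 1, MSM 2 and F1 BM in an intron. A B6-specific region was also nearest to Fdft1.

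In glucose metabolism 2 of 11 genes were nearest. G6pc, the last enzyme of glucose release, had 4 members in 3729 bp (chr11:101352718-101356446), 11115 to 14443 bp upstream of its start, with folds of 3.67 to 5.60 in MSM. Of these, 3 had an F1 BM peak and 2 an F1 MB peak. Gys2, liver glycogen synthase, had 3.94, 4.65 and 3.53 in MSM 1, MSM 2 and F1 BM.

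Among 27 complement genes, C6, C9 and Mbl1 were nearest. C9 had 5.16, 6.81, 5.52 and 6.30 in MSM 1, MSM 2, F1 BM and F1 MB, 173 bp from a B6 peak. Serpina genes were nearest in 3 of 24 cases. A region 22111 bp upstream of Serpina5 had 6.67, 6.08, 6.24 and 6.72 in the same order, so the F1 folds lay near those in MSM. The region 23354 bp upstream of the same gene had 3.896, 3.99, 2.52 and 2.98, with both F1 folds below those in MSM. The other plasma protein lists gave 1 of 19 coagulation factors, 2 of 29 apolipoproteins and 1 of 18 acute phase genes.

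Among genes of regulation and immunity, clock genes were nearest in 2 of 19 cases (Cry2 and Hlf), interferon response genes in 2 of 31, MHC genes in 0 of 37, and a list of liver transcription factors, which includes Pax8 because a member there was already known, in 2 of 19 (Pax8 and Foxa1). Pax8 gave 5 of the 7 members of that list. Of 365 Zfp genes, 12 were nearest (3.29%), against the 2.71% of all genes, and 7 of the 12 had a member without repeated 50-base words. Of the cell type markers, Alb, Apoa1 and Ttr of the 6 hepatocyte genes were nearest, and none of the 6 genes each for Kupffer, endothelial, stellate, bile duct and lymphoid cells was. Endothelial markers had start peaks at 4, 0, 2, 4, 5 and 0 of 6 genes in B6 1, B6 2, MSM 1, MSM 2, F1 BM and F1 MB. The part of cell composition was not tested.

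The 300-base windows around the summits of the members held few CpGs. Members had a median of 4 CpGs and 47.0% GC, B6-specific regions 6 and 50.0%, and regions of all 4 lists 16 and 58.3%. Regions found in a single MSM list had the same medians as the members, 4 and 47.0%. Among distal regions alone the medians were 3 CpGs for members, 4 for B6-specific regions and 6 for regions of all 4 lists. Members at starts had 9, where B6-specific regions at starts had 12 and those of all 4 lists 20.

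Windows in which at least 50% of the 50-base words recur in the reference were 62 of 872 (7.11%, 5.59 to 9.01), against 6.12% of B6-specific regions, 1.03% of regions of all 4 lists and 2.42% of all merged regions. F1 shares of these 62 were 67.7% for F1 BM and 16.1% for F1 MB. The 752 members without any repeated word had 64.2% and 23.9%, close to the values over all members.

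Short words known to be bound by transcription factors were searched on both strands of the windows. Among 761 distal members, the AP-1 word TGANTCA was found in 79 (10.4%, 8.41 to 12.8), against 6.88% of distal B6-specific regions, 6.79% of those in all 4 lists and 8.28% of all distal merged regions. The nuclear receptor word TGACCTTTG was found in 9 (1.18%, 0.623 to 2.23), against 0.196%, 0.309% and 0.392%. The 0.196% of distal B6-specific regions was 1 of 509 windows. With windows at starts included, this word was in 9 of 872 members (1.03%) and 7 of 849 B6-specific regions (0.824%), which were close. It was then in 0.309% of regions of all 4 lists and 0.372% of all merged regions. Among distal members, the GC box GGGCGG was found in 47 (6.18%), against 10.02%, 19.5% and 11.8% in the same distal classes.

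The CEBP and FOXA words were about as frequent in the members as in all merged regions. The CEBP word TTGCNNAA was in 11.6% of distal members and 11.2% of all distal merged regions, and the FOXA word TGTTTAC in 4.07% and 4.19%. The HNF4 word CAAAGTCCA was in 1 distal member (0.131%, 0.0232 to 0.741), and in 0.422% of all distal merged regions. The words were counted separately and matches of different words may overlap. A match is a description of the reference letters, which are those of B6, and not evidence of binding. Of the windows printed above, the one of Oaf held 1 AP-1 word and the others none of the 6 words.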

How the data were processed

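H3K9ac was immunoprecipitated from formaldehyde-fixed adult liver and sequenced as paired ends. Per the study's methods, reads were trimmed with Trim Galore and aligned with Bowtie 2 to mm10. The submitters' processing notes name Trim Galore, HISAT2, SAMtools and MACS2. Which aligner made these files, the caller's threshold and the control used are not given in the sources used here. Of 12 samples, the 6 inputs were not analysed here.

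The peak lists, as deposited by the authors, give per library each peak's fold ratio over background, its −log10 p and −log10 q, and a score that is 10 times the −log10 q. Peaks were called per library, and the lists hold no read counts. The study gives the read totals of each library, higher for the F1 than for the parental libraries, and these were not used here.

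Peaks of the 4 parental lists that overlapped or abutted were merged, and a region was scored as present in a library on an overlap of at least 1 bp. Starts were 1 per protein-coding symbol (21911) in GENCODE M21. Repeats were scored from 50-base words of GRCm38, with a scan tested on simulated data. Python 3.11.15, numpy 2.4.6 and matplotlib 3.10.9 were used. Shares have 95% Wilson intervals, and no test was made. Members, gene lists and words were chosen with earlier results of these data known. Named were the 10 members with the highest lower MSM fold at starts and the 10 elsewhere, runs, members nearest to listed genes, the 5 widest and those with the least −log10 q. Further members of runs and lists were picked as examples after their values were seen. Alternatives varied merging, list length, the −log10 q minimum, windows and gaps, and left out each library. A few listed genes are not reported here.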

Additional observations from a re-analysis of the deposited data

How the results depend on the processing

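The number of MSM-specific regions, 872 from the deposited lists, was 558 with peaks up to 500 bp apart merged, 522 with a −log10 q of at least 5 in the MSM lists and between 884 and 4654 when 1 of the 4 libraries was left out. The highest of these, 4654, was without B6 1. Without MSM 1 it was 2191 and without MSM 2 2115. The other alternatives gave 633 to 888.

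The share at a protein-coding start, 12.7%, was 10.4% when a B6 peak within 500 bp counted as present, 30.5% with the same number of peaks, 49.2% with the same covered length, 16.4% with a −log10 q of at least 5 in all 4 lists, 9.86% and 18.5% with windows of 500 bp and 2 kb, and 20.3% with starts of all transcripts. Leaving out a library gave 13.2% to 47.4%, the highest without B6 1.

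The share with an F1 BM peak, 64.2%, was 51.0% with the same number of peaks, 31.9% with the same covered length, 72.6% and 69.9% with a −log10 q of at least 5 in all 4 or in the MSM lists, and 55.5% where F1 peaks had to cover at least 50% of a region. Leaving out a library gave 43.5% (without MSM 1) to 75.2% (without B6 1). The share with an F1 MB peak, 22.9%, was 39.5%, 59.2%, 33.6%, 29.5% and 16.3% under these alternatives in the same order, and 12.4% (without MSM 1) to 50.0% (without B6 1) with a library left out.

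The share more than 5 kb from any B6 peak, 50.6%, was 72.0% against B6 2 alone, and 59.7% and 42.0% with limits of 2 and 10 kb. The number of runs, 49, was 41 and 62 with gaps of 50 and 200 kb, and is not given for other merging or list lengths. Keeping abutting peaks apart, an alternative chosen after seeing the data, gave 873 regions. Also chosen so, the alternatives of the genes higher in male and female liver gave 5 to 8 and 6 to 10.

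Of the 20 members named for their fold, 15 remained MSM-specific with peaks up to 500 bp apart merged and 16 with a B6 peak within 500 bp counted. Those at Dtnb, Zcchc9, Oaf and H6pd were lost under both of these rules, and that at C130074G19Rik with merging alone. With the same covered length 19 remained (Cog7 did not), and 20 did under each other list alternative. No paired analysis was possible because no test was made and the replicate numbers of the strains mark no shared animal. The causes of these shifts were not tested. Without read counts, a region missing from a list cannot be told apart from one below the caller's threshold.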
